A study of Mus musculus with 10 samples.

Results

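The urea cycle of mouse liver is described here through 8 genes. They are the 6 enzymes Nags, Cps1, Otc, Ass1, Asl and Arg1 and the mitochondrial carriers Slc25a15 and Slc25a13. The genes were chosen by name, with earlier results of these data known. All 8 were found among the 55385 genes of the count table and passed the filter on low counts. RNA was sequenced from liver hepatocytes, recovered by perfusion and cell sorting, of mice of the strain labelled C57BL/6J 129SV. Titles of the libraries compared here begin with HCC (hepatocellular carcinoma), while those of the other libraries of the series begin with Liver. The share of tumour cells among the sorted cells was not tested. Every mouse of the comparison was fed DDC, a chemical that damages liver cells and the biliary tree, and received a pT3-cMet plasmid delivered by tail vein injection, for 5 months. The EP300 KO group (2 libraries, genotype EP300-/-) received AAV-TBG-Cre, a virus that expresses the recombinase Cre from a hepatocyte promoter. The EP300 WT group (2 libraries, genotype EP300f/f) received AAV-TBG-GFP in its place. EP300 is a histone acetyltransferase and transcriptional coactivator, and the TBG promoter directs its removal to hepatocytes. Ages are not stated, the labels mention pooled sequencing, and they tie no library to an animal, so p-values cover the spread between these 4 libraries only, and that spread may be technical. The comparison asks how hepatocytes under DDC and cMet differ when they lack EP300.

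The 6 further libraries of the series compare mice with cMet on a DDC diet and on a normal diet. Of the 57820 gene identifiers in their tables, 57773 have the human form and the sources used here pair 0 with a symbol. No row was therefore assigned to a member, and those libraries were not analysed here.

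The urea cycle turns ammonia, which is toxic to the brain, into urea for excretion, and the complete cycle runs in hepatocytes, above all in those near the portal vein. It starts in the mitochondrion. Cps1 joins ammonia and bicarbonate into carbamoyl phosphate, provided that N-acetylglutamate from Nags is present, and Otc transfers the carbamoyl group to ornithine to give citrulline. In the cytosol, Ass1 links citrulline to aspartate, Asl splits the product into arginine and fumarate, and Arg1 splits arginine into urea and ornithine. Slc25a15 exchanges ornithine and citrulline across the inner mitochondrial membrane, and Slc25a13 exports the aspartate that Ass1 consumes.

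The targeted gene was examined first. Ep300 had 73.7 and 72.3 CPM (read counts brought to a shared library size by TMM scaling) in the libraries labelled KO, against 62.3 and 57.9 CPM in the libraries labelled WT. The log2 fold change of KO over WT was 0.28 (SE 0.07, edgeR adjusted p = 0.00498; 0.128 without EP300 WT replicate 2). The gene count was not lower in the KO-labelled libraries, a count over the whole gene does not show whether an exon was deleted, and every direction below is between libraries as labelled. Libraries held 17709799 and 17811489 counts in the KO-labelled group and 18575701 and 18831671 in the WT-labelled group. Of 14200 genes tested, 2366 were higher and 2485 lower in the KO-labelled libraries, or 34.2% called in all. With scaling by library size alone the split was 1846 higher and 3056 lower. Summed over the list of 9 markers, hepatocyte genes reached 122628 and 128639 CPM in the KO-labelled and 146793 and 145783 CPM in the WT-labelled libraries. Of these, 3 rose and 4 fell. The widest gap was in Trf, named after its values were seen, with 23711 and 26445 CPM in the KO-labelled and 37493 and 37241 CPM in the WT-labelled libraries. Other genes share 63.5% of its exon bases. Lymphocyte genes stayed below 1 CPM in each library, while markers of other cell types, given below, were present.

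In the KO-labelled libraries, 6 of the 8 urea cycle genes rose and 1 fell. The share of all genes tested that rose was 16.7%, and the share that fell was 17.5%. Otc rose most, 2.02-fold, followed by Cps1 (1.47-fold), Ass1 (1.38-fold), Slc25a15 (1.34-fold), Slc25a13 (1.30-fold) and Asl (1.28-fold). Nags fell to 0.813 of its WT level, and Arg1, at 1.07-fold, did not pass the test. The median log2 fold change of the 8 genes was 0.40, beside -0.01 over all genes tested. Abundant genes were called more often. Among the 2232 genes at or above the mean level of Nags, the least abundant of the 8, 854 rose (38.3%) and the median log2 fold change was 0.08.

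**Figure D1:**
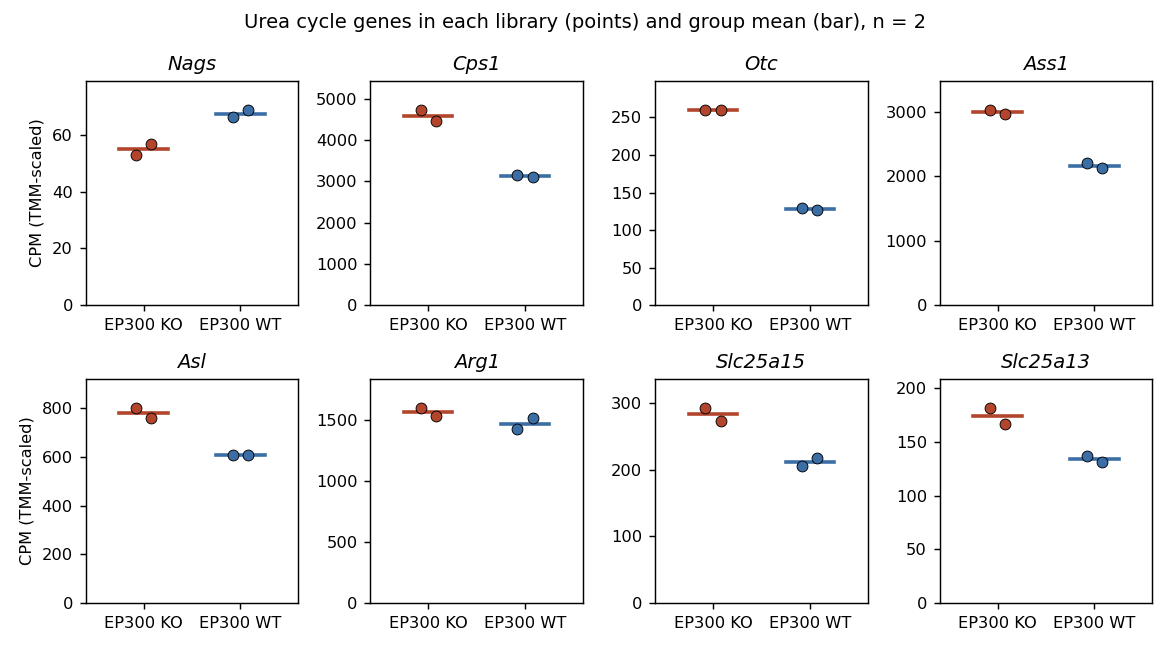
CPM of each urea cycle gene in the 2 EP300 KO and the 2 EP300 WT libraries (points) with the group mean (bar), each panel with its own axis from 0. Nags is lower in both KO libraries, Arg1 differs by less than 10% between the group means, and the other 6 genes are higher in both KO libraries.

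Entry of nitrogen into the cycle was examined first. Nags (ENSMUSG00000048217, chromosome 11, 102145513 to 102149477, plus strand, mm10) had 53.0 and 56.7 CPM in the KO-labelled libraries, against 66.2 and 68.6 CPM in the WT-labelled libraries. Both KO values lay below both WT values, a log2 fold change of -0.30 (SE 0.07, adjusted p = 0.00369). Leaving out EP300 WT replicate 1 (adjusted p = 0.0572), EP300 WT replicate 2 (adjusted p = 0.120) or the filter on low counts (adjusted p = 0.0585) ended the call. Of the exon bases of Nags, 15.6% are shared with the antisense gene Gm11586, with 0 and 3 counts in KO-labelled libraries and 9 and 1 counts in WT-labelled libraries. The sources used here do not say whether the counting used strand, so the assignment of reads of the shared bases is uncertain. Cps1 (ENSMUSG00000025991, chromosome 1, 67123026 to 67231259, plus strand), the enzyme that the product of Nags activates, went the other way. It stood at 4719 and 4463 CPM in the KO-labelled libraries and at 3155 and 3109 CPM in the WT-labelled libraries. The log2 fold change was 0.55 (SE 0.05, adjusted p = 1.53e-07), and the groups did not overlap.

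Otc (ENSMUSG00000031173, chromosome X, 10252305 to 10321024, plus strand) closes the mitochondrial part. It had 259.6 and 259.4 CPM in the KO-labelled libraries, against 129.9 and 126.7 CPM in the WT-labelled libraries. The replicates lay close together in both groups and the groups were far apart. The log2 fold change was 1.02 (SE 0.06, adjusted p = 1.34e-09). Otc is X-linked, and sex chromosome transcripts differed between the groups. Xist, which shuts down 1 of the X chromosomes of female cells, reached 2310 and 1411 counts in KO-labelled libraries and 3 and 2 counts in WT-labelled libraries. The Y-linked gene Ddx3y was present in all 4 libraries, at 55.2 and 46.7 CPM in the KO-labelled and 56.8 and 56.0 CPM in the WT-labelled group. Of 421 X-linked genes tested, 53 rose and 93 fell, with a median log2 fold change of -0.09. The share called was 34.7% of X-linked genes, beside 34.2% of all genes tested, and the share that rose was 12.6%, beside 16.7% of all genes tested. Xist differed between the same groups that are compared for every gene here, X-linked or not. The part of sex composition in the Otc difference, or in that of any other gene, was not tested.

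The carriers that link mitochondrion and cytosol rose by similar amounts. Slc25a15 (ENSMUSG00000031482, chromosome 8, 22375551 to 22398597, minus strand) had 293 and 274 CPM in the KO-labelled libraries and 206 and 218 CPM in the WT-labelled libraries. Its log2 fold change was 0.42 (SE 0.06, adjusted p = 4.71e-05). Slc25a13 (ENSMUSG00000015112, chromosome 6, 6041218 to 6217173, minus strand) had 182 and 167 CPM in the KO-labelled libraries, against 137 and 131 CPM in the WT-labelled libraries. Here the log2 fold change was 0.38 (SE 0.06, adjusted p = 0.000224). For both carriers the lower KO value exceeded the higher WT value.

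The cytosolic steps divided. Ass1 (ENSMUSG00000076441, chromosome 2, 31470207 to 31520672, plus strand) had 3019 and 2967 CPM in the KO-labelled libraries and 2203 and 2121 CPM in the WT-labelled libraries. The log2 fold change of Ass1 was 0.47 (SE 0.05, adjusted p = 1.08e-06). Asl (ENSMUSG00000025533, chromosome 5, 130011258 to 130029247, minus strand) had 801 and 758 CPM in the KO-labelled libraries, against 607 and 609 CPM in the WT-labelled libraries. Its log2 fold change was 0.36 (SE 0.05, adjusted p = 6.65e-05). These enzymes of citrulline and argininosuccinate were thus higher in both KO libraries. Arg1 (ENSMUSG00000019987, chromosome 10, 24915221 to 24927484, minus strand), the last step, had 1596 and 1529 CPM in the KO-labelled libraries and 1420 and 1513 CPM in the WT-labelled libraries. The log2 fold change of Arg1 was 0.09 (SE 0.05, adjusted p = 0.196). The lower KO value exceeded the higher WT value by less than the spread within either group. Without EP300 KO replicate 2 Arg1 passed with a log2 fold change of 0.13. There 1 KO library stood alone and was assumed to vary like the WT libraries. On the CPM scale the 2 groups did not overlap for any of the 8 genes, with 7 higher and 1 lower in KO. Of all genes tested, 66.4% did not overlap, 32.9% with KO higher and 33.5% with KO lower.

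**Figure D2:**
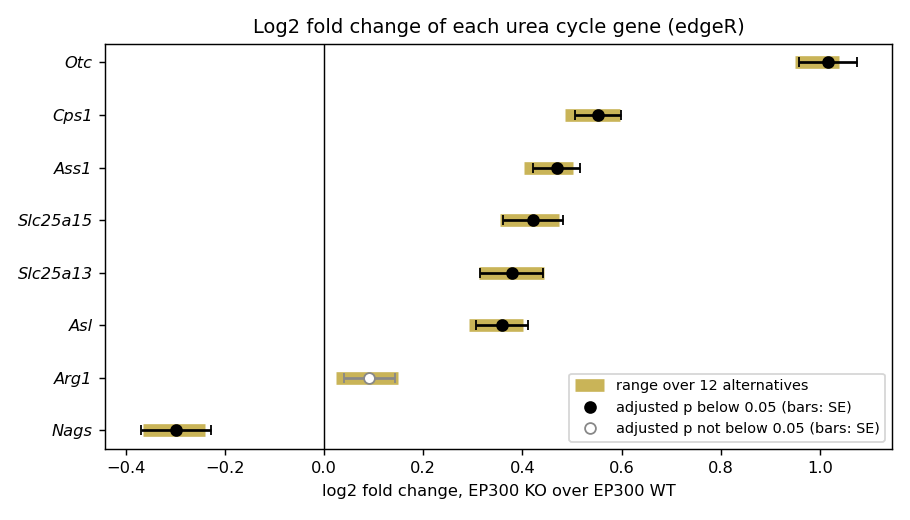
Log2 fold change of each urea cycle gene, EP300 KO over EP300 WT, from edgeR with its standard error (bars) and the range over the 12 alternative settings (band). Otc lies at 1.02, 5 genes lie between 0.36 and 0.55, Arg1 lies at 0.09 and Nags at -0.30.

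Ratios within a library do not depend on how libraries are scaled, and they showed how the members shifted against each other. Per 1000 counts of Cps1 there were 11.2 and 12.7 counts of Nags in the KO-labelled libraries, against 21.0 and 22.1 in the WT-labelled libraries. For Arg1 the ratio was 338 and 343 counts in the KO-labelled libraries and 450 and 487 in the WT-labelled libraries. Otc moved the other way, with 55.0 and 58.1 counts per 1000 of Cps1 in the KO-labelled libraries and 41.2 and 40.8 in the WT-labelled libraries. Ass1 kept closest to Cps1, at 639.8 and 664.7 against 698.4 and 682.1 counts, a difference of -0.08 on the log2 scale between KO and WT. For each of the 7 ratios to Cps1 the groups did not overlap, as was so for the ratio to Cps1 of 88.4% of the other 14199 genes tested, so nothing particular to the members is read from it. An exact permutation test over libraries (two-sided, 6 splits) gave p = 0.333 for each, the smallest value that 2 libraries against 2 allow, so these ratios are given as values.

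Levels of different genes were compared per length, as TPM (counts divided by the annotated exon length of the gene and brought to the same total in each library). In the KO-labelled libraries the order was Ass1 (2914 and 2870 TPM), Cps1 (1979 and 1876), Arg1 (1668 and 1602), Asl (386 and 367), Otc (142.6 and 142.8), Slc25a15 (121 and 114), Slc25a13 (111 and 102) and Nags (43.5 and 46.6). In the WT-labelled libraries it was Ass1 (2286 and 2160 TPM), Arg1 (1597 and 1670), Cps1 (1422 and 1376), Asl (315 and 310), Slc25a15 (91.6 and 95.1), Slc25a13 (90.3 and 84.7), Otc (76.7 and 73.5) and Nags (58.5 and 59.5). The KO and WT orders thus differed in the places of Cps1 and Arg1 and in that of Otc, which stood above both carriers in the KO-labelled and below both in the WT-labelled libraries. No neighbours in either order overlapped. The closest were the 2 carriers, whose nearest values were 114 and 111 TPM in the KO-labelled libraries and 91.6 and 90.3 TPM in the WT-labelled libraries. Arg1, which did not overlap between groups in CPM, did so in TPM. The cytosolic enzymes Ass1 and Arg1 together with Cps1 made up most of the summed TPM. Cps1 held 26.9% and 26.3% of it in the KO-labelled libraries and 24.0% and 23.6% in the WT-labelled libraries, and Arg1 held 22.6% and 22.5%, against 26.9% and 28.6%.

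**Figure D3:**
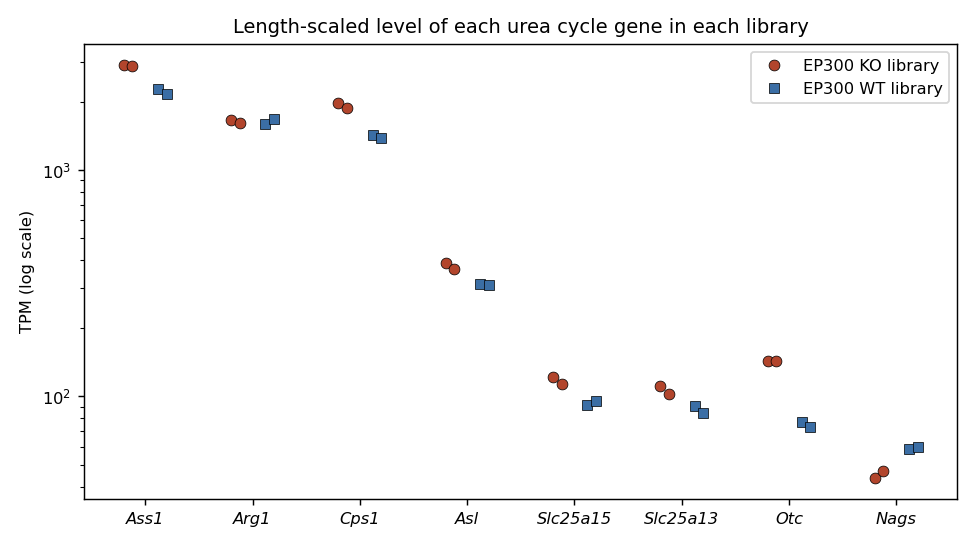
Length-scaled level (TPM, log axis) of each urea cycle gene in each EP300 KO library (circles) and each EP300 WT library (squares), ordered by the WT mean. Ass1, Arg1 and Cps1 lie above 1000 TPM in each library, and Otc lies above Slc25a13 in the KO libraries and below it in the WT libraries.

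Genes that bring nitrogen and bicarbonate to the cycle mostly rose. For comparison, 16.7% of all genes tested rose and 17.5% fell. Among the 2232 genes at or above the mean level of Nags, a level that most but not all of this list reach, 38.3% rose. Of 16 genes of ammonia and aspartate supply, 15 were tested, of which 10 rose and 1 fell (median log2 fold change 0.28). Without EP300 WT replicate 2 the counts were 6 and 1. Car5a, the mitochondrial carbonic anhydrase that provides bicarbonate to Cps1, stood at 44.1 and 38.7 CPM in the KO-labelled libraries, against 14.6 and 14.6 CPM in the WT-labelled libraries. Its log2 fold change of 1.50 (SE 0.10, adjusted p = 4.88e-09) was larger than that of any of the 8 cycle genes, and 23.5% of its exon bases are shared with another gene. The amino acid transporters of the plasma membrane Slc38a4 (0.77, SE 0.05, adjusted p = 1.84e-08) and Slc38a3, which moves glutamine (0.74, SE 0.05, adjusted p = 1.85e-08), rose as well. Named after their values were seen, Gls2, the glutaminase of periportal hepatocytes, rose by 0.67, and Glud1, the glutamate dehydrogenase, was the gene that fell (-0.38).

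Genes listed for the pericentral route of ammonia disposal, in which hepatocytes near the central vein bind leftover ammonia into glutamine, mostly fell. Across all genes tested, 16.7% rose and 17.5% fell. The list also holds Lgr5 and Axin2, which do not handle ammonia. All 8 genes of this list were tested, of which 7 fell and 1 rose (median log2 fold change -1.78), as in each of the 12 alternatives. Glul, glutamine synthetase, had 375 and 372 CPM in the KO-labelled libraries and 1439 and 1436 CPM in the WT-labelled libraries, and is named after its values were seen. The WT-labelled libraries were thus far higher, and the log2 fold change was -1.94 (SE 0.05, adjusted p = 1.44e-13). The largest falls were in Lgr5, a Wnt target (-2.56, SE 0.19), in Slc1a4, a transporter of neutral amino acids (-2.44, SE 0.13), and in Rhbg, an ammonia channel (-2.19, SE 0.23), which shares 61.4% of its exon bases with another gene. Slc7a2, the arginine transporter of hepatocytes, was the gene that rose (0.72, SE 0.06, adjusted p = 1.11e-07).

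Routes that leave the cycle showed no single direction. Among all genes tested, 16.7% rose and 17.5% fell. Of 20 genes of arginine and ornithine use, 18 were tested, 5 rose and 4 fell (median log2 fold change 0.07). With DESeq2, with library size alone, without a filter and without EP300 KO replicate 2 the counts were 3 and 4, and without either WT library 3 and 3. The largest changes were falls, in Aldh18a1, which makes the precursor of proline and ornithine (-1.83, SE 0.24), in the spermine oxidase Smox (-1.54, SE 0.10) and in the arginine transporter Slc7a1 (-1.14, SE 0.26). Slc7a1 lost its call when either WT library was left out, with an adjusted p of 0.0537 without EP300 WT replicate 1 and of 0.0581 without EP300 WT replicate 2. Arg2, the mitochondrial arginase, was near the detection limit, at 17 and 23 counts in KO-labelled libraries and 22 and 42 counts in WT-labelled libraries, and did not pass (adjusted p = 0.308). Of 6 genes of pyrimidine synthesis, which also uses carbamoyl phosphate, the X-linked Ctps2 fell (-0.49, SE 0.13, adjusted p = 0.0105). The other 5 did not pass. Leaving out EP300 WT replicate 2 (adjusted p = 0.304) or the filter (adjusted p = 0.215) ended the call of Ctps2. Of the 5, Cad passed with the replicate block (adjusted p = 0.0423). It also passed once EP300 KO replicate 1 was left out (0.36), when 1 KO library stood alone. Umps passed with library size alone (-0.30, adjusted p = 0.0200). Of 5 urea and water channels, 2 were tested. Aqp8 rose (0.30, SE 0.08, adjusted p = 0.00728; 0.158 without EP300 WT replicate 1, 0.0770 without a filter), and Aqp9, a channel permeable to urea, did not pass (0.08, adjusted p = 0.287).

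As a reference, 16.7% of all genes tested rose and 17.5% fell. Among the 2232 genes at or above the mean level of Nags, which some genes of this list do not reach, 38.3% rose. Among 14 transcription factors, cofactors and receptors of hepatocyte metabolism, 7 rose, Ep300 among them, and 3 fell (median log2 fold change 0.16). Without EP300 WT replicate 1 the counts were 5 and 0, without EP300 WT replicate 2 they were 3 and 0, and without a filter 5 and 1. Cebpb, a C/EBP factor of the injured liver, had 239.9 and 322.0 CPM in the KO-labelled libraries and 118.6 and 121.9 CPM in the WT-labelled libraries. Its log2 fold change was 1.22 (SE 0.10, adjusted p = 8.04e-08), the KO replicates lay further apart than the WT replicates, and 20.7% of its exon bases are shared with another gene. Klf15, a regulator of amino acid breakdown, rose by 0.55 (SE 0.06) and Nr1h4, the bile acid receptor FXR, by 0.52 (SE 0.06). Lower were Ppargc1a (-0.48, adjusted p = 0.00404), Nr3c1 (-0.29, adjusted p = 0.00257) and Creb1 (-0.27, adjusted p = 0.0407). These 3 lie outside the naming rule and were added with their values already known. Creb1 lost its call with DESeq2 (adjusted p = 0.225), without a filter (adjusted p = 0.0913) and with any single library left out. Ppargc1a lost its call without a filter (adjusted p = 0.0770), and both Ppargc1a and Nr3c1 lost theirs when either WT library was left out. Cebpa, whose loss in mice is known to lower Cps1, and Hnf4a did not pass, at 0.11 (adjusted p = 0.159) and 0.10 (adjusted p = 0.170), and are named after their values were seen. Without EP300 KO replicate 1, when 1 KO library stood alone, both passed, Cebpa at 0.16 and Hnf4a at 0.12.

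**Figure D4:**
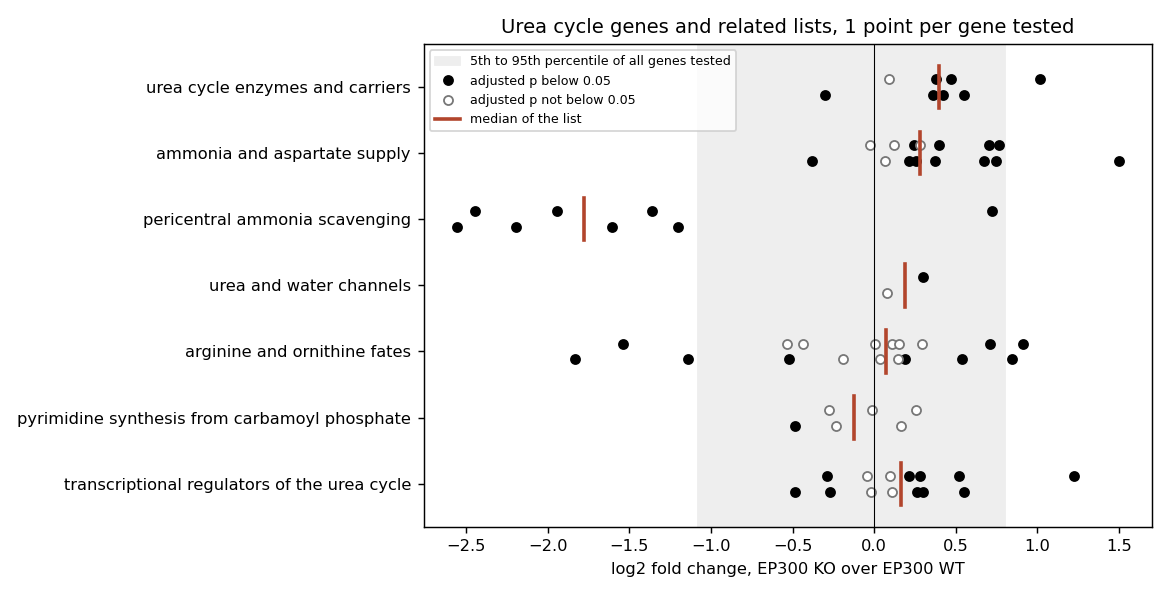
Log2 fold change, EP300 KO over EP300 WT, of the urea cycle genes and of 6 related lists, 1 point per gene tested, filled where the adjusted p is below 0.05, with the median of each list (bar) and the 5th to 95th percentile of all genes tested (grey). The medians are 0.40 for the urea cycle genes, 0.28 for ammonia and aspartate supply and -1.78 for pericentral ammonia scavenging.

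The 5 genes whose profile over the 4 EP300 libraries lay nearest to that of Otc were Etnppl, Ugt2b5, Herpud1, Syvn1 and Tsku. Their distances were 0.04 to 0.06 on the log2 scale, among 2672 genes with a mean of at least 50 CPM. Among the nearest to the median profile of the 8 members were Stard5, Lman2, Ctss and Rnf149, at distances of 0.01 to 0.03. With 4 libraries such a profile holds little more than the difference between the groups.

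Some markers of other cells moved with the same labels. Over all genes tested, 16.7% rose and 17.5% fell. Of the markers below, 6 biliary, 7 macrophage, 3 neutrophil and 3 erythroid genes were tested. Every gene of the stellate, endothelial and hepatocyte lists was tested. In these sorted bulk libraries, fewer cells of a type and less RNA per cell cannot be told apart. Of 7 biliary markers, 4 fell and 0 rose. Their summed level was 190 and 204 CPM in the KO-labelled libraries, against 342 and 335 CPM in the WT-labelled libraries. Cdh1 had the widest gap in CPM among them, with 79.6 and 91.6 CPM in the KO-labelled and 164.9 and 155.1 CPM in the WT-labelled libraries. Epcam did not pass (-0.01, adjusted p = 0.991). Of 7 stellate and fibroblast markers, 3 fell and 0 rose, with sums of 163 and 152 CPM in the KO-labelled and 259 and 250 CPM in the WT-labelled libraries. Most of that gap was Reln, with 30.9 and 32.9 CPM in the KO-labelled and 118.9 and 112.9 CPM in the WT-labelled libraries, while Dcn, made by fibroblasts, had 85.4 and 74.8 CPM in the KO-labelled and 79.4 and 82.1 CPM in the WT-labelled libraries and did not pass. Without EP300 WT replicate 1, and without a filter, 1 of these markers fell. Of 7 endothelial markers, 4 fell and 0 rose, with sums of 239 and 213 CPM in the KO-labelled and 281 and 273 CPM in the WT-labelled libraries, and without EP300 WT replicate 1 only 2 fell. Macrophage markers are relevant to Arg1 because some macrophages express it. They summed to 390 and 384 CPM in the KO-labelled and 365 and 359 CPM in the WT-labelled libraries. Single markers differed more than the sums, with Marco at 41.1 and 27.8 CPM in the KO-labelled and 5.37 and 6.08 CPM in the WT-labelled libraries. Of 8 macrophage markers, 3 were higher (Marco at 2.59, Chil3 at 0.97 and Cd68 at 0.43) and 1 was lower (Mrc1 at -0.39). Without EP300 WT replicate 2, and without a filter, 1 was higher and 1 lower, and without EP300 KO replicate 2 the counts were 3 and 2. Of 5 neutrophil markers 2 fell, 0 without EP300 WT replicate 2 or without a filter and 1 with a minimum count of 50, and of 5 erythroid markers 1 rose. Neutrophil markers summed to 4.98 and 3.39 CPM in the KO-labelled and 8.21 and 8.99 CPM in the WT-labelled libraries, and erythroid markers to 51.9 and 49.4 CPM, against 11.0 and 10.5 CPM. The erythroid sum was mostly Alas2, a heme synthesis enzyme on the X chromosome, with 45.7 and 45.1 CPM in the KO-labelled and 6.32 and 6.24 CPM in the WT-labelled libraries. The globin gene Hbb-bs, with 3.24 and 2.53 CPM in the KO-labelled and 3.05 and 1.71 CPM in the WT-labelled libraries, did not pass, and neither did Hba-a1 (0.10, adjusted p = 0.849). Cdh1, Epcam, Reln, Dcn, Marco, Chil3, Cd68, Mrc1, Alas2 and these globin genes are named after their values were seen. Krt19, the defining biliary keratin, had 9 and 13 counts in KO-labelled libraries and 14 and 9 counts in WT-labelled libraries. Among 9 hepatocyte markers, 3 rose and 4 fell. Without EP300 KO replicate 1 the counts were 5 and 4, without either WT library 2 and 2, without a filter 3 and 2, and with the 20 most abundant genes left out 3 and 1. Apoa1 (-0.67) fell and Tat, which degrades tyrosine, rose (0.90), both named after their values were seen. The part of cell makeup in the urea cycle results was not tested.

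Upstream sequence was available for 5 of the 8 members in the RefSeq promoter table (GRCm38.p6, the assembly of mm10). It is shown for the member that rose most (Otc, chrX:10252055-10252304, plus strand), the member that fell (Nags, chr11:102145263-102145512, plus strand) and a carrier that rose (Slc25a13, chr6:6217174-6217423, minus strand). Each is the 250 bases before the annotated start, 5′ to 3′, and capitals mark matches on either strand to the motifs listed after them.
Otc: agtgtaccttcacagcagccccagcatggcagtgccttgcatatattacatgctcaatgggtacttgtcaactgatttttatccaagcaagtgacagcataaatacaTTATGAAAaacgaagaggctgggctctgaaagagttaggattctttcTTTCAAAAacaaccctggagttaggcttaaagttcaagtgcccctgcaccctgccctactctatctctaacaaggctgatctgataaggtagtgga
Nags: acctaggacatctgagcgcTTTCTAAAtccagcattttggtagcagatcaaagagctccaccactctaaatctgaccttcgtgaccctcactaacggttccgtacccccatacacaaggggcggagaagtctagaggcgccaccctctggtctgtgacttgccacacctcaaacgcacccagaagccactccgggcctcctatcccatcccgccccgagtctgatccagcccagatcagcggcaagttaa
Slc25a13: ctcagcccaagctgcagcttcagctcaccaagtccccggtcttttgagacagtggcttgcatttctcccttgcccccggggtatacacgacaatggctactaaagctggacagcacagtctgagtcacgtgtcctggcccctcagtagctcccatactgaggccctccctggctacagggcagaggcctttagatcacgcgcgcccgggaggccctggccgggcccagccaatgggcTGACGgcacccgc
The motifs searched were the C/EBP core TTNNGNAA, the CRE core TGACG, the glucocorticoid receptor core TGTTCT, the HNF4 core CAAAGTCCA and the TATA box TATAAA, of which no matches overlapped in these windows. Otc held 2 matches to the C/EBP core, starting at -143 and -96 from the gene start, and Nags held 1, starting at -231. Among 32851 promoter windows of the same length, 36.8% held at least 1 such match. Slc25a13 held 1 CRE core, starting at -13, which 17.8% of windows hold. The other 3 motifs had no match in the windows shown and are held by 16.1% (glucocorticoid receptor core), 0.384% (HNF4 core) and 12.4% (TATA box) of windows. A match of letters is a description of the sequence and was not tested for binding.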

How the data were processed

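For the EP300 libraries the authors deposited 1 table of raw read counts, in whole numbers, by gene. Per the labels' protocols, cells were sorted after liver perfusion and a TruSeq RNA kit was used. Per the submitters' processing notes, STAR, HTSeq, DESeq2 and mm10 were used, with no role given. The annotation, the counter and its strand setting are not given in the sources used here. Another 4 columns of the table, which match no sample, were left aside. Of 55385 identifiers, 55144 matched a symbol. Coordinates and exon lengths come from GENCODE M21 (mm10).

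Groups were taken from sample titles. Counts were tested with edgeR 4.0.16 in R 4.3.3 (quasi-likelihood test on group alone with 2 residual degrees of freedom, TMM normalization, genes kept by filterByExpr at a minimum count of 10). Benjamini-Hochberg adjustment ran over all 14200 genes tested, with a threshold of 0.05. Rose and fell mean past that threshold. Each standard error was derived from the log2 fold change and its F statistic, and the common biological coefficient of variation was 5.47%. TPM was computed from counts and the union of exons. Libraries of a label differed by more than sampling noise (chi-square per degree of freedom 5.50 in KO and 2.60 in WT). Counts were also simulated with 1 dispersion for all genes and 50 genes changed at each fold size. There, 72% of 1.5-fold and 84% of 2-fold changes were recovered, with 9 false calls among 14135 genes tested. In the data 34.2% of genes were called and the spread differed between the groups, so these rates need not hold for them.

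The members and the gene lists were chosen with earlier results of these data known. Named genes were the 8 members, the 3 largest passing changes of each related list, and the 5 nearest profiles to Otc and to the members' median among genes of at least 50 CPM (log2 CPM with a prior count of 1, centred, Euclidean distance). 1 of these profiles is not reported here. Alternatives were other scalings, filters and tools (DESeq2 1.42.0, limma-voom 3.58.1), removal of the 20 most abundant genes, a block for the replicate number, and removal of single libraries.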

Additional observations from a re-analysis of the deposited data

How the results depend on the processing

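Under the 12 alternatives to the EP300 fit, Cps1, Otc, Ass1, Asl, Slc25a15 and Slc25a13 kept their direction and their side of the threshold. Their log2 fold changes ran from 0.95 to 1.04 for Otc, 0.49 to 0.60 for Cps1, 0.40 to 0.50 for Ass1, 0.36 to 0.47 for Slc25a15, 0.31 to 0.44 for Slc25a13 and 0.29 to 0.40 for Asl, and no member changed sign. Nags ranged from -0.36 to -0.24 and lost its call in 3 alternatives, so that the number of members called lower was 0 without a filter, where 24666 genes were tested, and 0 to 1 with a library left out. Arg1 ranged from 0.02 to 0.15 and was called in 1 alternative, without EP300 KO replicate 2. With a KO library left out, the other stood alone and was assumed to vary like the WT libraries, which differed less from each other. With a library left out, 6 to 8 members were called, 6 to 7 of them higher, and 2306 to 5154 of all genes, beside 4851 with all libraries. The counts were 2602 without EP300 WT replicate 1 and 2306 without EP300 WT replicate 2, when 1 WT library stood alone and was assumed to vary like the KO libraries. Without a filter 2703 genes were called, and with DESeq2 3270.

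The replicate numbers of the labels say nothing of a shared source, and deviations of the libraries numbered 1 were uncorrelated (-0.00 between KO and WT). With the replicate number as a block, 5190 genes were called and the members' calls numbered 7, as without it. Each member had at least 916 counts in each library. Alternatives for the DDC+Met comparison, the stranded columns among them, were not run because its identifiers were not paired with the members.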
